A study of Mus musculus with 4 samples.

Results

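The 10 genes described here are the FOS genes (Fos, Fosb, Fosl1, Fosl2), the JUN genes (Jun, Junb, Jund) and 2 ATF genes (Atf3, Batf3) of the transcription factor AP-1, together with Runx1. They were chosen by symbol, and all 10 were among the 22369 genes of the deposited expression table. RNA had been sequenced on day 9 of reprogramming from OG2MEF cultures, embryonic fibroblasts of mice in which an Oct4 promoter drives green fluorescent protein. There were 2 libraries labelled SOX17-V118M, an altered form of the endodermal factor SOX17, and 2 labelled SOX17 WT, the wild-type form. Per the labels' protocol, retroviruses carried Sox2 and Klf4 with OCT4, SOX17, SOX17-V118M or GFP, and the cells were then grown in medium for embryonic stem cells that contained LIF and vitamin C. The labels do not say which of these viruses each library received besides the form of SOX17. In the table Pou5f1, which encodes OCT4, reached 61186, the top of the scale, in each of the 4 libraries, and Sox2 was at 4 and 2 in V118M and at 2 and 2 in WT, near its bottom (both genes were picked after their values were seen). No library of untransduced or GFP-transduced fibroblasts was analysed here, so the values below compare V118M with wild type at a single day and give no change over time.

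AP-1 is a dimer of basic leucine zipper proteins. FOS proteins pair with JUN proteins, and the pairs bind the sequence TGANTCA in enhancers. Many of its genes are immediate early genes, switched on within a short time of serum, growth factor or stress signals through ERK, JNK and p38 kinases. In fibroblasts AP-1 occupies a large share of the active enhancers, often beside RUNX and TEAD factors. During reprogramming these sites close, and Jun, Fosl1 and Runx1 have been described as barriers to the formation of induced pluripotent cells.

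The promoters of Fosb and Atf3, the 2 members with an unadjusted p under 0.05, are shown with those of Fos and Jun, the best known members of the FOS and JUN families, for which p was above that threshold. The RefSeq table of promoters on GRCm38.p6 held 9 of the 10 members. Each window is 300 bases long, with 250 bases before the start site nearest to that of the deposited table and 50 after it. It is written in the direction of transcription. The nearest site was 2206 bases from that of the deposited table for Junb, 1210 for Jund, 671 for Fosl2 and 567 for Batf3. For the other windows it was at most 75 bases away. The windows are chr7:19309996-19310295 on the minus strand for Fosb, chr1:191183284-191183583 on the minus strand for Atf3, chr12:85473640-85473939 on the plus strand for Fos and chr4:95052173-95052472 on the minus strand for Jun. Capitals mark matches to the motifs searched on both strands, which were TGANTCA, TGACNTCA, the shorter core TGACG and the CArG box of serum response factor. The core can lie inside a match to TGACNTCA.
Fosb: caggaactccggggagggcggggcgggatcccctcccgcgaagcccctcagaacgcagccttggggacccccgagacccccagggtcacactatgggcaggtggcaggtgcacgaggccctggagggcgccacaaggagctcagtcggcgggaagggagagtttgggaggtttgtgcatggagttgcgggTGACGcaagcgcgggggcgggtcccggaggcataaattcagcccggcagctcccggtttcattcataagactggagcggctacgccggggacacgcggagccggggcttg
Atf3: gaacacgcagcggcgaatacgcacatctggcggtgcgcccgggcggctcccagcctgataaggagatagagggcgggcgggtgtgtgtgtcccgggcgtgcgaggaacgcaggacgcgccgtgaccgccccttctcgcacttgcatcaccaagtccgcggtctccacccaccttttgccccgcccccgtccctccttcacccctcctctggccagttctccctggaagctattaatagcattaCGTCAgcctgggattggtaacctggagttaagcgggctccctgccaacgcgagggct
Fos: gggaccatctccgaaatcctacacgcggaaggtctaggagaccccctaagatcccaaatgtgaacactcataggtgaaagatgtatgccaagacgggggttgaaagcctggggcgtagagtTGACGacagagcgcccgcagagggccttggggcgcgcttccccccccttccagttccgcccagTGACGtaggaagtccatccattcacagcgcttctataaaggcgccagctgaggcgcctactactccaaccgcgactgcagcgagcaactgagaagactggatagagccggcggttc
Jun: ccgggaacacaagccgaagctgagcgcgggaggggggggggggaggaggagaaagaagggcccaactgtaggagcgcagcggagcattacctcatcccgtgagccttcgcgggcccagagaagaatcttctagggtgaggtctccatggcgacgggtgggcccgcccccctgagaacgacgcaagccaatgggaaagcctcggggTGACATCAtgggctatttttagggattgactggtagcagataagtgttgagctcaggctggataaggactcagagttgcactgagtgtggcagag
The core TGACG began 60 bases before the start site in Fosb and 129 and 66 bases before it in Fos. In Atf3 it lay on the opposite strand, read as CGTCA in the printed window from 7 bases before the start site. Jun held TGACATCA, 45 bases before its start site, and so did Runx1, 86 bases before its start. The core was present in 4 of the 9 member windows and TGACNTCA in 2, while TGANTCA and the CArG box were in 0 of them. Among all 32851 windows of this length, 20.8% held the core, 8.83% TGACNTCA, 7.81% TGANTCA and 1.63% the CArG box. These matches are letters in a window. Sequence outside the windows was not searched, so a motif absent here can lie farther away, and binding was not measured.

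The 4 libraries had been normalized to nearly the same distribution, with a highest value of 61186 in each, so their depth is unknown and no counting error can be given. The median value was 76 in WT replicate 1. Of the 22369 genes 19547 passed the filter on low values, among them all 10 members. V118M replicate 2 stood apart, with correlations of 0.954 to 0.964 with the other libraries, which correlated with each other at 0.986 to 0.990 across 12661 genes. Its deviation from the others was related to transcript length (Spearman's rho -0.458 across genes), longer transcripts being lower in it. The same measure was 0.381 for V118M replicate 1, 0.39 for WT replicate 1 and 0.0777 for WT replicate 2, each set against a mean that includes V118M replicate 2. Every member is therefore also given without that library (a trend on length and GC was removed as an alternative). The median log2 gap between replicates over the members was 0.30 in V118M and 0.066 in WT, against 0.44 and 0.17 over all genes tested. None of 12 fibroblast markers was at 0 in any library. Their median log2 difference was 0.0069, or 0.08 without V118M replicate 2 and 0.16 without V118M replicate 1. At an unadjusted limma p under 0.05, 2 of them were higher and 0 lower in V118M, against 2.31% and 1.7% of all genes tested. Of 8 keratinocyte markers 6 were higher and 2 lower in V118M, with a median log2 difference of 0.43, or 0.24 without V118M replicate 2, and their part in the values of the members was not tested. Nothing in the labels says that replicates came from separate cultures. The p-values therefore cover the spread between these libraries alone, and this may be technical.

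Of the FOS genes, Fosb was lower in V118M at an unadjusted p under 0.05, and Fos, Fosl1 and Fosl2 were not past that threshold. Fosb (ENSMUSG00000003545, GRCm38 chromosome 7, 19302696 to 19310051, minus strand) encodes a FOS protein that is nearly silent in resting cells and strongly induced by stimuli. Its normalized values were 42 and 28 in V118M, against 90 and 93 in WT. Both V118M libraries lay below both WT libraries, and the V118M mean was 38.3% of the WT mean. The log2 difference on the log2(value + 1) scale was -1.39 (standard error 0.30, 95% confidence interval -2.15 to -0.63, limma unadjusted p = 0.00513). Adjusted over all genes tested by the method of Benjamini and Hochberg the limma p was 0.936, so Fosb did not pass. Without V118M replicate 2 its log2 difference was -1.10, and without V118M replicate 1 it was -1.67.

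Fosl2, which encodes FRA2 (chromosome 5, 32135801 to 32157842, plus strand), had 3081 and 2345 in V118M, against 3369 and 3398 in WT. The groups did not overlap, and V118M replicate 2 was the farther of both V118M libraries from WT. The log2 difference was -0.33 (standard error 0.19, interval -0.80 to 0.14, limma adjusted p = 0.951). Leaving out V118M replicate 2 gave -0.14, leaving out V118M replicate 1 gave -0.53, and the value was -0.17 once each library was corrected for transcript length and GC. The Fosl2 transcript of the table is 6537 bases long, the longest of the 10.

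Fosl1, which encodes FRA1, the FOS member most tied to the mesenchymal state (chromosome 19, 5447547 to 5455946, plus strand), had 759 and 656 in V118M, against 617 and 703 in WT. The groups overlapped, and the log2 difference of 0.099 had an interval of -0.32 to 0.52 (limma adjusted p = 0.951). Leaving out V118M replicate 2 gave 0.20, and leaving out V118M replicate 1 gave -0.0057. Fosl1 shares 1163 exon bases with Ccdc85b on the opposite strand, which had 46 and 124 in V118M, against 43 and 38 in WT. The sources used here do not say whether counting used strand, so reads of such pairs cannot be told apart.

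Fos, the founding member (chromosome 12, 85473890 to 85477273, plus strand), had 90 and 158 in V118M, against 95 and 100 in WT. V118M replicate 2 was the highest of the 4 libraries and V118M replicate 1 the lowest. The log2 difference was 0.29 (standard error 0.32, interval -0.52 to 1.10, limma adjusted p = 0.951), and its sign turned without V118M replicate 2, to -0.11. Per kilobase of exon, Fos was at 38.3 and 67.2 in V118M, against 40.4 and 42.5 in WT, and Fosb, the other immediate early FOS gene, at 6.73 and 4.49 in V118M, against 14.4 and 14.9 in WT.

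**Figure D1:**
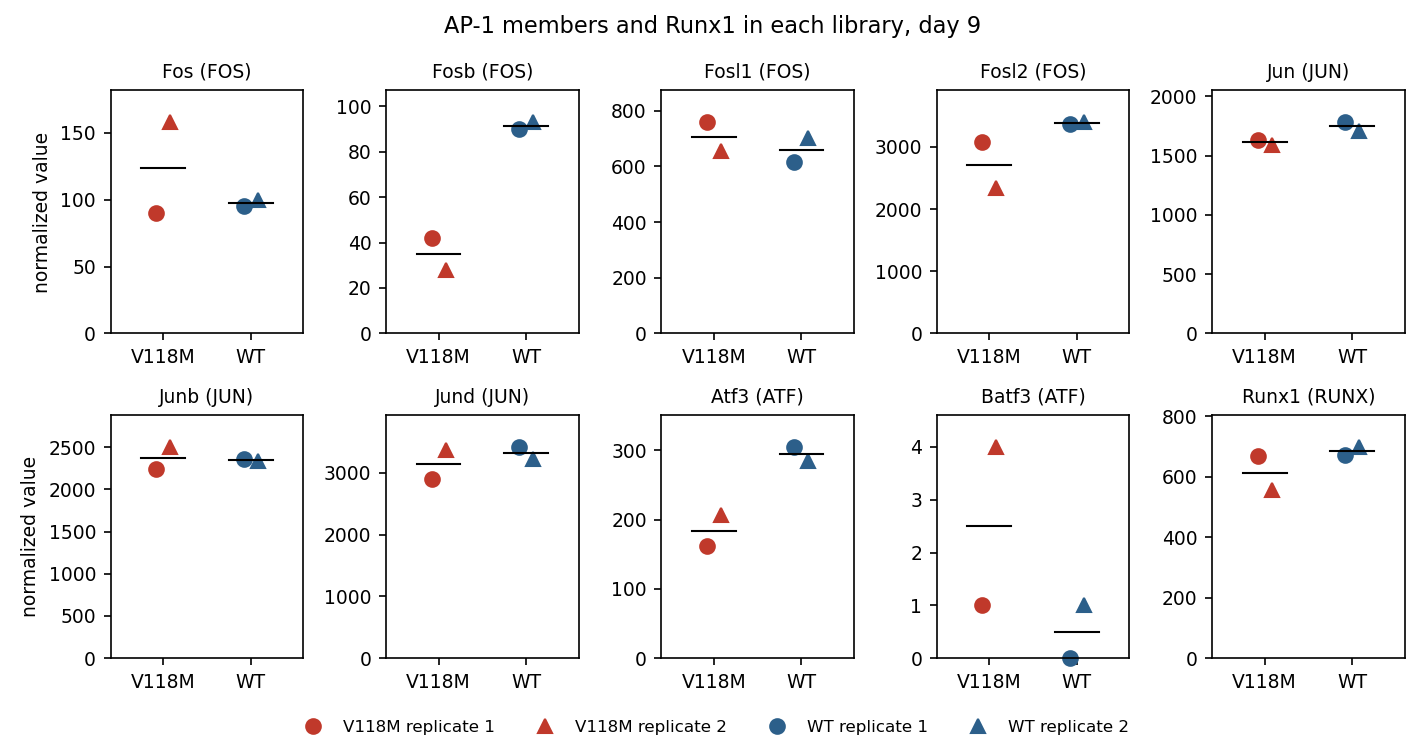
Normalized value of each of the 10 genes in each library, V118M to the left of WT, with a separate vertical scale from 0 in each panel. Circles are replicate 1, triangles replicate 2 and bars the group mean. Fosb (42 and 28 in V118M, 90 and 93 in WT) and Atf3 (162 and 206 in V118M, 305 and 284 in WT) are the genes whose group means lie farthest apart relative to their level, Batf3 at the bottom of the scale left aside.

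None of the 3 JUN genes, which supply the partners that FOS proteins need, had an unadjusted p under 0.05. Jun (chromosome 4, 95049034 to 95052222, minus strand), a single-exon gene and the main target of JNK, had 1632 and 1590 in V118M, against 1782 and 1710 in WT. Both V118M libraries were below both WT libraries by a small margin. The log2 difference was -0.12 (standard error 0.14, interval -0.47 to 0.24, limma adjusted p = 0.951), and -0.097 without V118M replicate 2. Its antisense neighbour Junos, which shares 689 exon bases with it, had 10 and 21 in V118M, against 13 and 4 in WT.

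Junb (chromosome 8, 84974484 to 84978718, minus strand), a weaker activator that can oppose Jun, had 2243 and 2502 in V118M, against 2364 and 2333 in WT. The WT values lay between those of V118M. The log2 difference was 0.013 (interval -0.36 to 0.38), and -0.066 without V118M replicate 2. Prdx2 overlaps 173 exon bases of Junb on the opposite strand and was at 3202 and 4207 in V118M, against 3228 and 3670 in WT.

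Jund (chromosome 8, 70698949 to 70700616, plus strand), the JUN member most evenly expressed across resting and growing cells, had 2906 and 3372 in V118M, against 3422 and 3224 in WT. The groups overlapped, with a log2 difference of -0.086 (interval -0.48 to 0.31). Leaving out V118M replicate 1 gave 0.022, and leaving out V118M replicate 2 gave -0.19. The antisense gene Gm11175, which shares 919 exon bases with Jund, had 32 and 0 in V118M, against 55 and 81 in WT.

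Atf3 was the second member lower in V118M at an unadjusted p under 0.05. It encodes a stress-induced factor that pairs with JUN proteins and is switched on by ATF4, p53 and JNK (chromosome 1, 191170296 to 191218039, minus strand). Its values were 162 and 206 in V118M, against 305 and 284 in WT. The groups did not overlap, and the V118M mean was 62.5% of the WT mean. The log2 difference was -0.68 (standard error 0.20, interval -1.19 to -0.18, limma unadjusted p = 0.0165, limma adjusted p = 0.951). It was -0.86 without V118M replicate 2, which was the nearer of both V118M libraries to WT, and -0.51 without V118M replicate 1 (limma unadjusted p = 0.0508).

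Batf3, which in mice is needed for a class of dendritic cells (chromosome 1, 191097847 to 191108945, plus strand), was at the bottom of the scale, with 1 and 4 in V118M, against 0 and 1 in WT. The groups met at 1, and the log2 difference of 1.16 had an interval of -0.80 to 3.12 and was 0.50 without V118M replicate 2. Batf3 ends 61350 bases before the start of the Atf3 interval on the same chromosome. Of 8 dendritic cell markers, Flt3, Itgax and Irf8 were at 0 in at least 1 library. The summed values of the 8 were 154 and 238 in V118M, against 166 and 150 in WT. Zbtb46 made up the largest part of each sum, at 108 and 140 in V118M, against 96 and 90 in WT. Of the 7 markers tested, 4 were lower and 3 higher in V118M. Their median log2 difference, -0.019 with all libraries, became -0.43 once V118M replicate 2 was dropped. With V118M replicate 1 dropped instead it became 0.56.

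Runx1, a runt domain factor of blood-forming cells that is also active in fibroblasts (chromosome 16, 92601466 to 92826149, minus strand), had 668 and 557 in V118M, against 670 and 698 in WT. The V118M values were below those of WT, one of them by only 2 units. The log2 difference was -0.16 (standard error 0.16, interval -0.58 to 0.25, limma adjusted p = 0.951). It was -0.034 without V118M replicate 2, -0.30 without V118M replicate 1 and -0.061 after the correction for length and GC. Runx1 is also a leukocyte gene. Of 16 leukocyte markers 13 were lower and 2 higher in V118M, with summed values of 734 and 824 in V118M, against 1236 and 970 in WT, and a median log2 difference of -0.50. Leaving out V118M replicate 2 gave a median of -0.998, and leaving out V118M replicate 1 gave -0.050. Ptprc, Adgre1, Tyrobp, Fcer1g and Aif1 were at 0 in at least 1 library. Of these, Ptprc had 30 and 0 in V118M, against 165 and 58 in WT, while Aif1 was at most 1 in any library. The part of such cells in the Runx1 values was not tested, and in bulk cultures fewer cells of a type and less RNA per cell cannot be told apart.

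Of the 10 genes, 6 were lower in V118M, against 48.9% of all genes tested, and 4 were higher. Of them 2 had an unadjusted p under 0.05, against 4.01% of all genes tested, and both were lower, against 1.7% of all genes lower and 2.31% higher at that threshold. With adjustment over all genes 0 of the 10 passed, and 0% of the 19547 genes did (limma, lowest adjusted p = 0.205, with 784 genes at an unadjusted p under 0.05). The V118M libraries lay below the WT libraries without overlap in 5 members, Fosb, Fosl2, Jun, Atf3 and Runx1, against 14.8% of all genes, and above them in 0, against 13.2%. After the correction for length and GC, 6 were below, Jund being the added gene, against 16.9% of all genes, and 0 above, against 18%. With V118M replicate 1 as the only V118M library 8 members were below both WT libraries, against 33.4% of all genes, and with V118M replicate 2 as the only one 5 were below, against 38.6%. With 2 libraries against 2, an exact two-sided permutation test of a single gene cannot go below p = 0.333. The median log2 difference of the members was -0.10, and the median of all genes was 0, with its middle quartiles from -0.22 to 0.23. Of the 10 members 5, namely Fosl1, Jun, Junb, Jund and Runx1, lay between these quartiles.

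**Figure D2:**
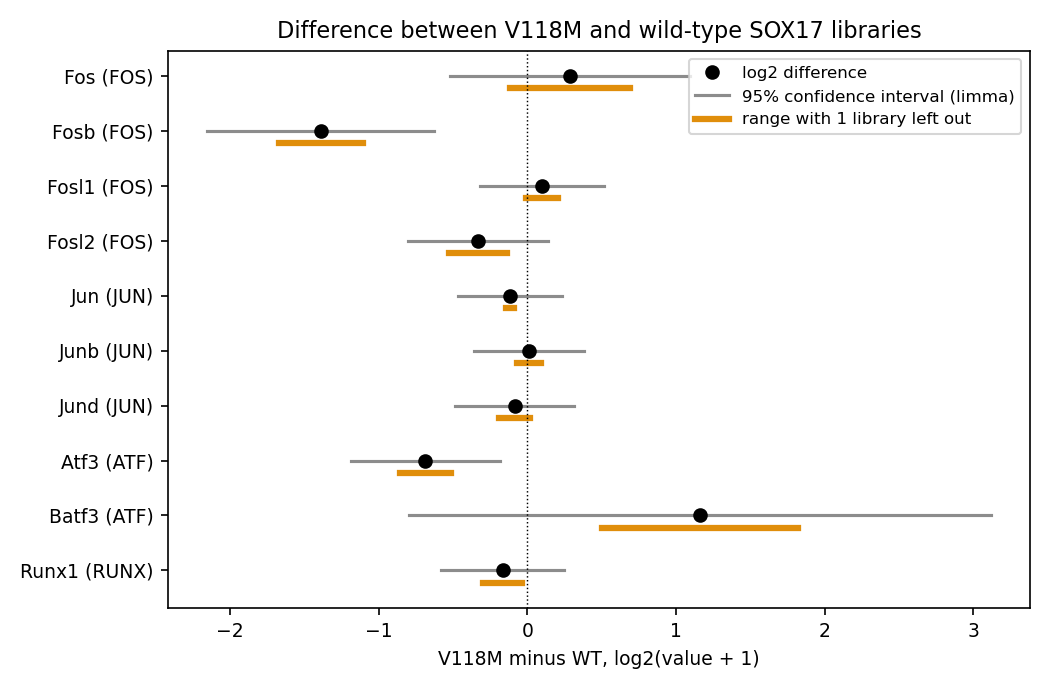
Log2 difference of each gene, V118M minus WT on the log2(value + 1) scale (points), with its 95% confidence interval from limma (grey) and the range of the difference when each library is left out in turn (orange). The intervals of Fosb (-2.15 to -0.63) and Atf3 (-1.19 to -0.18) lie below 0, before any adjustment for the number of genes tested.

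Levels of different genes were compared per kilobase of annotated exon, averaged over the 4 libraries. This length was taken over all transcripts of a gene. For Fosl2 it was 9680 bases, against 6537 for its transcript in the deposited table. For Runx1 it was 12025 against 5861, and for Junb 2301 against 492. The order below therefore depends on the length used. Jund was highest at 1937 per kilobase, followed by Junb at 1026, Jun at 526, Fosl1 at 336, Fosl2 at 315, Atf3 at 111, Runx1 at 53.9, Fos at 47.1, Fosb at 10.1 and Batf3 at 0.939. The ranges over libraries overlapped for the neighbours Fosl1 and Fosl2 and for Runx1 and Fos, and for no other neighbours in this order. By this measure JUN transcripts were above FOS transcripts. The family sums for JUN were 3229 and 3608 per kilobase in V118M and 3638 and 3483 in WT. For FOS they were 737 and 637 in V118M and 706 and 754 in WT.

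Fosl1 and Fosl2 made up nearly all of the FOS sum. Fosl1 held 50.7% of it in each V118M library, against 43.0% and 45.9% in WT. Fosl2 held 43.2% and 38.1% in V118M, against 49.3% and 46.5% in WT. The share of Fosb was 0.913% and 0.705% in V118M, against 2.04% and 1.98% in WT, and that of Fos 5.20% and 10.6% in V118M, against 5.72% and 5.64% in WT. The gene with the largest relative difference thus supplied the smallest part of the family. Within the JUN sum Jund held 54.0% and 56.1% in V118M, against 56.4% and 55.5% in WT. Junb held 30.2% and 30.1% in V118M, against 28.2% and 29.1% in WT, and Jun 15.8% and 13.8% in V118M, against 15.4% in each WT library. These shares depend on the annotated exon length, taken over all transcripts of a gene. It was 9680 bases for Fosl2 and 2033 for Fosl1, against 6537 and 1864 for their transcripts in the deposited table. For Junb it was 2301 against 492. Which of Fosl1 and Fosl2 holds more in V118M, and which JUN gene holds most, depends on the length used.

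**Figure D3:**
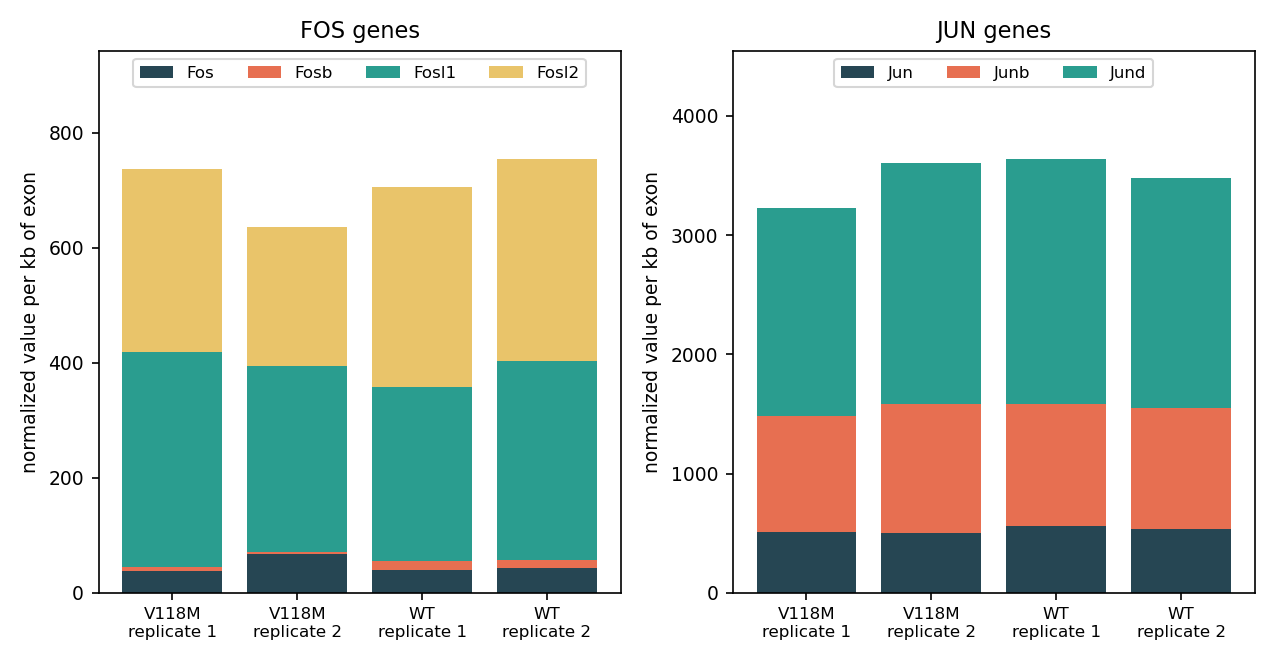
Normalized value per kilobase of exon for the FOS genes (left) and the JUN genes (right), stacked in each library, V118M to the left of WT. Fosl1 and Fosl2 fill most of the FOS bars, where Fosb is 0.913% and 0.705% in V118M and 2.04% and 1.98% in WT, and Jund is the largest part of each JUN bar.

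With all libraries and a pseudocount of 1, Fosb was the member with both the largest difference and the smallest p. The difference of Batf3, at the bottom of the scale, was larger in size under other settings. It was 2.68 with a pseudocount of 0.1, 1.82 without V118M replicate 1 and 1.66 without WT replicate 2. The genes nearest to Fosb were looked up by Euclidean distance between log2 values centred over the 4 libraries, among 12661 genes whose log2 values averaged at least 5. The nearest was Oit1, at 24 and 16 in V118M, against 50 and 52 in WT (distance 0.056). Tspan2 had 30 and 17 in V118M, against 66 and 59 in WT (distance 0.21). Mmrn2 had 30 and 15 in V118M, against 60 and 63 in WT (distance 0.29). With 4 libraries a close match is easily reached, and it is given as a description.

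Lists of other genes of the pathway had medians from -0.21 to 0.046 with all libraries, the median of the members being -0.10. In these lists 0 genes passed over all genes tested. At a limma unadjusted p under 0.05 the share of all genes tested was 4.01%. Among 20 other immediate early genes 12 were higher and 8 lower in V118M, with a median log2 difference of 0.011, or -0.12 without V118M replicate 2. Egr1, a zinc finger factor induced through serum response elements as Fos is, had 806 and 735 in V118M, against 594 and 584 in WT (log2 difference 0.39, limma unadjusted p = 0.0434), opposite in direction to Fosb. Nr4a3, an orphan nuclear receptor, had 304 and 322 in V118M, against 388 and 428 in WT (log2 difference -0.38). Of these 20 genes 1 had an unadjusted p under 0.05.

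Upstream, 13 of 18 kinases and phosphatases were lower and 5 higher, with a median of -0.13, or -0.026 without V118M replicate 2, and 0 had an unadjusted p under 0.05. Dusp1, an immediate early phosphatase that switches off JNK and p38, had 632 and 554 in V118M, against 756 and 762 in WT (log2 difference -0.36). Dusp6, the ERK phosphatase that is itself induced by ERK, had 343 and 349 in V118M, against 256 and 272 in WT (log2 difference 0.39). SRF and the ternary complex factors, which switch on Fos, were lower in 5 of 6 genes with a median of -0.21, and the median was 0.030 without V118M replicate 2. Elk1 had 276 and 263 in V118M, against 310 and 320 in WT, and Elk4 938 and 575 in V118M, against 883 and 954 in WT.

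Among the other leucine zipper genes that can pair with AP-1 subunits, 13 of 21 tested were lower and 8 higher, with a median of -0.036, or -0.096 without V118M replicate 2. Both that had an unadjusted p under 0.05 were higher. Maf, a large MAF factor, had 144 and 178 in V118M, against 105 and 84 in WT (log2 difference 0.76, limma unadjusted p = 0.0205). Nfil3, a repressor, had 262 and 271 in V118M, against 178 and 200 in WT (log2 difference 0.50, limma unadjusted p = 0.0329). In the ATF4 pathway, which induces Atf3, 9 of 18 genes were lower and 9 higher, with a median of -0.0082 and 0 at an unadjusted p under 0.05. Chac1, a target of ATF4 that degrades glutathione, had 45 and 25 in V118M, against 61 and 56 in WT. Eif2ak3, which encodes the kinase PERK, had 476 and 320 in V118M, against 540 and 582 in WT.

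Downstream, 15 of 28 textbook AP-1 targets were higher and 13 lower, with a median of 0.046, or -0.015 without V118M replicate 2. The metalloproteinase gene Mmp3, whose promoter is a classical AP-1 target, had 247 and 237 in V118M, against 146 and 132 in WT (log2 difference 0.80, standard error 0.18, limma unadjusted p = 0.00577). The cytokine gene Il6 had 26 and 36 in V118M, against 13 and 12 in WT (log2 difference 1.23, limma unadjusted p = 0.0217). These were the 2 of 28 targets with a limma unadjusted p under 0.05, against 4.01% of all genes tested. Both were higher, against 2.31% of all genes higher at that threshold. In no target was the adjusted p under 0.05.

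Among the RUNX genes and their partners 4 of 8 were lower and 4 higher, with a median of 0.022, or -0.0079 without V118M replicate 2. Runx2, the bone and mesenchyme member, had 674 and 544 in V118M, against 788 and 758 in WT (log2 difference -0.35). Cbfa2t3, a corepressor of the ETO family, had 50 and 32 in V118M, against 72 and 71 in WT (log2 difference -0.82, limma unadjusted p = 0.0457). Of 22 other somatic transcription factors tested, 12 were higher and 10 lower, with a median of 0.033, or 0.089 without V118M replicate 2. Ets2, which works beside AP-1 at many promoters, had 1226 and 1155 in V118M, against 1594 and 1582 in WT (log2 difference -0.42, limma unadjusted p = 0.0289). Fli1, an ETS factor of endothelium and blood, had 28 and 32 in V118M, against 13 and 12 in WT (log2 difference 1.20, limma unadjusted p = 0.0194).

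**Figure D4:**
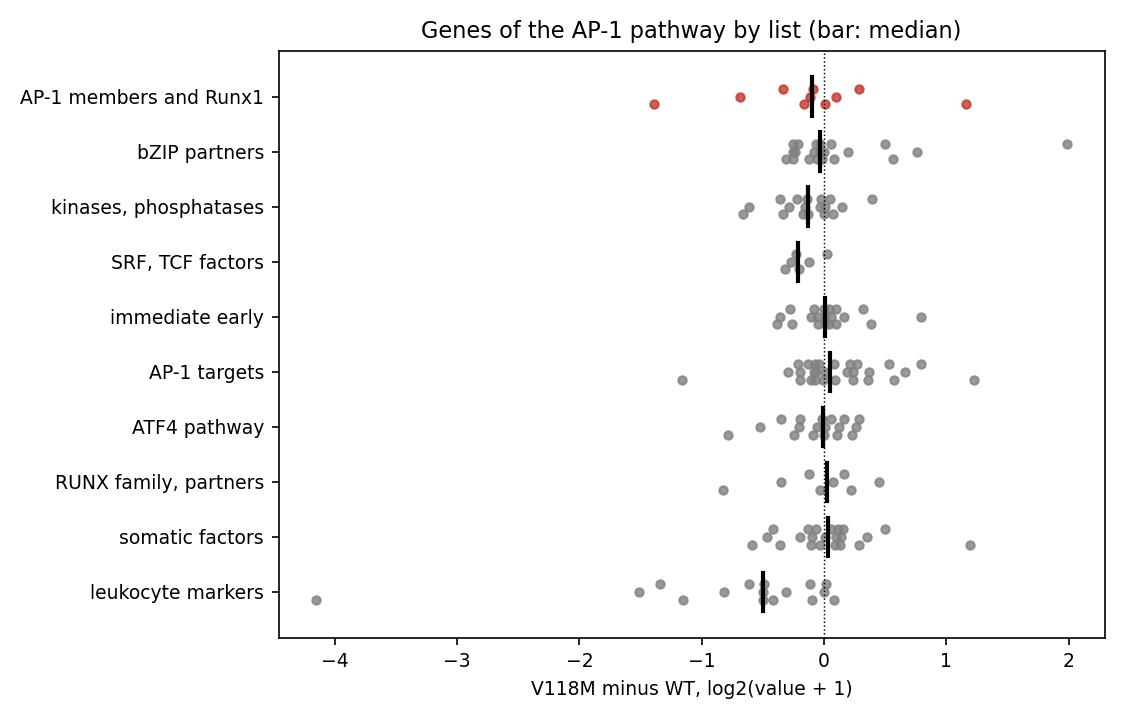
Log2 difference of each tested gene, V118M minus WT on the log2(value + 1) scale, by list, with the median of each list as a bar. Apart from the leukocyte markers, at -0.50 with all libraries and -0.050 without V118M replicate 1, the medians shown run from -0.21 for SRF and the ternary complex factors to 0.046 for AP-1 targets. The other marker lists are not drawn.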

How the data were processed

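The deposited table gives 1 column of normalized values per library. These are whole-number scores for each gene and not raw counts, since the 4 sorted columns agreed at 76.7% of ranks and their totals differed by 0.0321%. Per the submitters' processing notes, RSEM, Bowtie2, DESeq2 and FastQC were among the tools and mm10 was the build, with no versions or roles stated. The sources used here do not say how the authors normalized the deposited scores. Transcripts were matched to GENCODE M21 on GRCm38 (22304 found). Values were taken as log2(value + 1), a gene was tested where 2 or more libraries had a value of 1 or more, and a model with group alone was fitted with limma 3.58.1 (trend and robust options, R 4.3.3). The fit was run on simulated data whose spread was taken from the WT replicates alone. The V118M replicates lay farther apart (median log2 gap 0.44 against 0.17 in WT), which that simulation did not cover. Two-sided p-values were adjusted by the Benjamini-Hochberg method over every gene tested.

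The genes named by rule were all members, the 2 genes with the smallest p of each pathway list, none having passed, and the 3 genes nearest to the member with the largest difference. Also named were Pou5f1 and Sox2, genes that overlap a member, and markers at 0 in at least 1 library or with a large part in a summed value. Otherwise marker lists were used for counts, summed values and medians. The members and lists were chosen with earlier results of these data known. Alternatives were pseudocounts of 0.1 and 5, no filter, a filter of 10 in at least 2 libraries, a replicate block, leaving out each library, array quality weights, and a correction of each library for transcript length and GC (lowess).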

Additional observations from a re-analysis of the deposited data

How the results depend on the processing

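Under 11 alternatives Fosb was lower in V118M in each, with log2 differences from -1.67 to -1.10 and an unadjusted limma p under 0.05 in 11. Atf3 was lower in each, from -0.86 to -0.51, with p under 0.05 in 8. With each adjusted over all genes, 0 members passed under any alternative. The labels gave the replicates no pairing beyond the shared number. Across 12661 genes, deviations of the replicate 1 libraries from their group means correlated at 0.303 between WT and V118M. A shared replicate effect was not tested. With the replicate block 3 genes passed, none of them a member, and 1204 genes had an unadjusted p under 0.05, against 784 without it and 1441 with no filter. Leaving out single libraries gave 221 to 5096 such genes, with 1 to 3 members among them, and each such fit assumes that a lone library varies like the others. The member median ranged from -0.13 to -0.064 with single libraries left out and was -0.060 after the correction for length and GC. The count of members below WT without overlap was 5 to 8 with single libraries left out, and 8 without V118M replicate 2, where 33.4% of all genes were below. Signs turned with single libraries left out for Fos (-0.11 to 0.69), Fosl1 (-0.0057 to 0.20), Junb (-0.066 to 0.091) and Jund (-0.19 to 0.022). For Junb the sign also turned after the correction for length and GC (-0.0039). That correction used a Junb transcript of 492 bases, against 2301 bases of annotated exon. The causes were not tested. The depth of the libraries is unknown, which limits what can be said of Batf3.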
